A study of Mus musculus with 2 samples.

Results

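The Six-family and Eya genes encode transcription regulators, some of which act in nephron progenitors, and 9 of these genes were described here in whole embryonic mouse kidney. Members were taken from a list (Six2, Six3, Six4, Six5, Six6, Eya1, Eya2, Eya3 and Eya4, which does not hold every Six-family paralog), by their Ensembl identifiers, out of 43346 mouse genes in the gene tables, and their 39 transcripts were taken out of 103639. The study is a total RNA-seq experiment on kidneys of B6NCrl embryos aged 16.5 days, with sexes mixed and no treatment or mutation named. It holds 1 group of 2 libraries, biological replicates 1 and 2, each from pooled kidneys: the pool of replicate 2 came from 41 embryos, and for replicate 1 a number was not given in the sources used here. With 1 group there was no contrast of conditions, so the comparisons below are between paralogs, between transcripts of a gene and between the libraries.

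Six-family proteins bind DNA through a homeodomain and carry an adjoining SIX-type domain, through which they recruit Eya proteins. Eya proteins do not bind DNA themselves: their conserved C-terminal Eya domain contacts the Six-family partner and has tyrosine phosphatase activity, and the pair can activate genes that the DNA-binding partner alone cannot. In the developing kidney Eya1 is needed for the metanephric mesenchyme to form and respond, and Six2 keeps cap mesenchyme cells in a self-renewing progenitor state. Pax and Hox proteins act with them, and Dach and Tle proteins are corepressors of the same network.

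Mouse genes held 34261328 estimated counts in replicate 1 and 37900132 in replicate 2. Levels are given in TPM (transcript abundance), a count divided by length and scaled to the same sum in each library. Cell type markers were read against the tissue label. Of all protein-coding genes, 62.2% reached 1 TPM in both libraries. All 8 nephron progenitor markers reached 1 TPM in both libraries, as did all 4 ureteric, 3 cortical stroma, 3 podocyte and 3 proximal tubule markers. Of 9 skeletal muscle markers 5 did, and the 9 summed to 96.8 TPM in replicate 1 and 196 TPM in replicate 2. That sum was led by the sarcomeric actin Acta1, with 48.3 and 139 TPM, while the muscle stem cell marker Pax7 stood at 0.02 TPM in both. Of 7 nerve and glia markers 4 did, with summed levels of 35.0 and 24.1 TPM in replicates 1 and 2, and of 4 cartilage markers 2 did, with 23.0 and 24.6 TPM. Because whole kidneys were sequenced, a lower level can mean fewer cells of a type or less RNA per cell, and these cannot be told apart.

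Of the 9 genes, 7 were detected, with at least 1 TPM in both libraries: Six2, Six4 and Six5, and all 4 Eya genes. That rule was met by 62.2% of all 21474 protein-coding genes. The median of the mean levels was 7.15 TPM over the 9 members and 5.50 TPM over all protein-coding genes.

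Six2, the progenitor self-renewal factor, was the highest of the listed Six-family genes. It stood at 13.0 TPM in replicate 1, from 605 counts, and at 11.2 TPM in replicate 2, from 563 counts (mean 12.1 ± 1.32, SD, n = 2). As high or higher were 38.7% of protein-coding genes in replicate 1 and 41.0% in replicate 2. Six2 lies on the minus strand of chr17:85684277-85688274 (GRCm38, the assembly that mm10 names).

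Six5, known from the human myotonic dystrophy locus, came next. Its level was 8.60 TPM in replicate 1 and 7.97 TPM in replicate 2, from 574 and 578 counts. Six2 exceeded Six5 in each library, by 1.46 ± 0.0803-fold (SD over 2 libraries), and the lower and upper TPM bounds deposited with the values did not overlap between these genes. Six5 lies on the plus strand of chr7:19094594-19098549.

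Six4, which in muscle and sensory development overlaps in function with other family members, was the lowest listed Six-family gene with reads. It stood at 3.22 TPM in replicate 1 and 3.29 TPM in replicate 2, from 470 and 520 counts. Six5 exceeded Six4 by 2.55 ± 0.176-fold, again with separate bounds. The gene lies on the minus strand of chr12:73099609-73113456, and its long transcripts put its counts close to those of Six5 while its level per length was below that of Six5.

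Six3 and Six6, the regulators of eye and forebrain development, held 0 counts in both libraries. A floor of 3 counts per library, which covers counting error only, corresponds to 0.0454 TPM in replicate 1 and 0.0418 TPM in replicate 2 for Six3, and to 0.0334 and 0.0308 TPM for Six6. Against that floor Six2 was at least 287-fold higher than Six3 in replicate 1 and at least 268-fold higher in replicate 2, and at least 390-fold and 363-fold higher than Six6. These folds rest on the counting floor alone: the deposited upper bounds of Six3, 0.0977 TPM in replicate 1 and 0.0903 TPM in replicate 2, lay above its floor. The 7 listed markers of eye and ventral forebrain were low as well: none reached 1 TPM in both libraries, Otx2 and Crx were at 0 in both, and the list summed to 0.07 TPM in replicate 1 and 1.36 TPM in replicate 2, of which Nkx2-1 made up 1.22.

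Genes at 0 and expressed genes of this family are neighbours on 2 chromosomes. Six3 lies on the plus strand of chr17:85613608-85629302, with its 3′ end facing that of Six2 across 54974 bp. Six6 lies on the plus strand of chr12:72939892-72944899, with its 3′ end facing that of Six4 across 154709 bp. In each of these tail-to-tail pairs 1 gene had at least 470 counts in each library and the other had 0.

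Eya1, the Eya gene that kidney formation depends on and that is mutated in human branchio-oto-renal syndrome, was the highest of the 9 genes. It stood at 35.4 TPM in replicate 1, from 2535 counts, and at 31.1 TPM in replicate 2, from 2284 counts (mean 33.2 ± 3.02). As high or higher were 21.6% of protein-coding genes in replicate 1 and 24.0% in replicate 2. It lies on the minus strand of chr1:14168954-14310235.

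Eya3, a widely expressed family member, followed with 25.9 TPM in replicate 1 and 24.4 TPM in replicate 2, from 920 and 964 counts. Eya1 exceeded it by 1.32 ± 0.0618-fold, and their bounds were apart, from 32.7 to 38.1 TPM for Eya1 against 24.1 to 29.2 TPM for Eya3 in replicate 1. This ratio depends on the transcripts to which the reads were assigned, because the deposited TPM of Eya3 rests on a mean effective length of 1546 bases in replicate 1 and 1588 in replicate 2, whereas its longest complete coding transcript has 5087. That transcript, Eya3-202, was assigned 0 counts in both libraries. Most Eya3 counts were assigned to Eya3-212, with an effective length of 2221 bases. With counts divided by the effective length of each gene's longest complete coding transcript, on the same scale, Eya3 stood at 7.88 in replicate 1 and 7.60 in replicate 2, and Eya1 at 25.9 and 21.5, so that Eya1 exceeded Eya3 by 3.05 ± 0.326-fold. Eya3 lies on the plus strand of chr4:132638987-132724765.

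Eya4, mutated in a dominant human deafness, had 7.90 TPM in replicate 1 and 6.39 TPM in replicate 2, from 694 and 616 counts. Eya3 exceeded Eya4 by 3.55 ± 0.375-fold in TPM, but by 1.13 ± 0.133-fold with the lengths of the longest complete coding transcripts. Eya4 lies on the minus strand of chr10:23102963-23350786.

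Eya2, which pairs with Six-family proteins in muscle precursors, had 6.10 TPM in replicate 1 and 5.71 TPM in replicate 2, from 315 and 328 counts. Eya4 exceeded Eya2 by 1.21 ± 0.124-fold, and this pair was not separated: the bounds of Eya2 in replicate 1, 5.90 to 8.81 TPM, contained those of Eya4, 7.16 to 8.32 TPM. With the deposited posterior mean TPM the mean log2 ratio of Eya4 over Eya2 was -0.0037. Eya2 lies on the plus strand of chr2:165595032-165771727.

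Of the 5 neighbouring pairs in these orders, all 5 had values that did not overlap between genes, and 4 of them also had separate bounds in each library. The orders were set by the mean levels in the same 2 libraries, so they fix which gene of a pair is higher on average. An exact sign-flip permutation test over 2 libraries, two-sided, cannot give a p below 0.5. That smallest value was entered for every pair, so no pair was called different by a test.

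**Figure D1:**
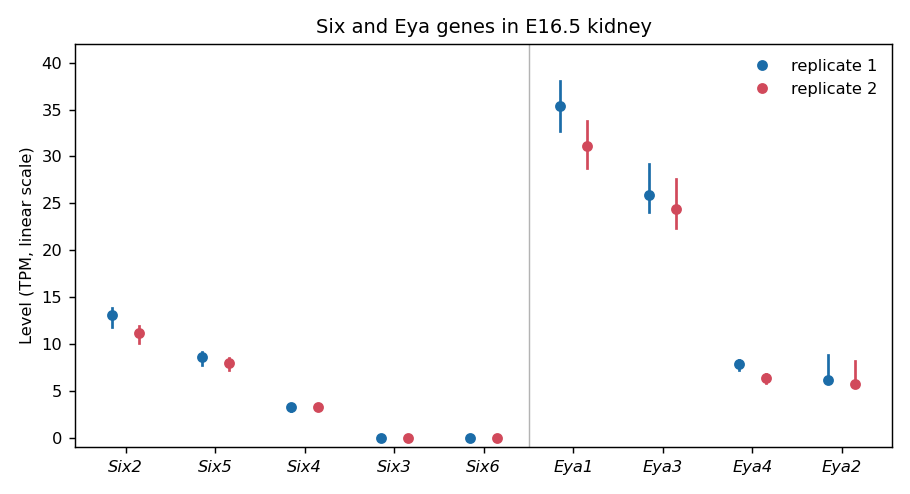
Level in TPM (linear axis) of each Six-family and Eya gene in replicate 1 and replicate 2. Points are deposited TPM and lines run between the deposited lower and upper bounds, with the Six-family genes left of the grey line. Six3 and Six6 lie at 0, and the wide bounds of Eya2 reach over those of Eya4.

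Summed over the listed genes, the 4 Eya genes came to 71.4 ± 5.47 TPM (SD, n = 2). The 5 listed Six-family genes came to 23.7 ± 1.71 TPM. The ratio of these sums was 3.03 in replicate 1 and 3.01 in replicate 2. Six2 made up 51.1 ± 1.86% of the Six-family sum, Six5 35.1 ± 0.653% and Six4 13.8 ± 1.21%. Eya1 made up 46.5 ± 0.663% of the Eya sum, Eya3 35.2 ± 1.15%, Eya4 9.97 ± 0.731% and Eya2 8.28 ± 0.248%. With the lengths of the longest complete coding transcripts the ratio of the sums was 1.91 in replicate 1 and 1.83 in replicate 2, and Eya3 made up 17.7 ± 1.35% of the Eya sum.

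The libraries were compared gene by gene on counts scaled by trimmed mean of M-values (TMM), as the log2 ratio of replicate 1 over replicate 2. This describes the pools and is not a test. None of the 7 members tested was past 2-fold, against 2.32% of the 15362 genes tested. Eya4 differed most, at 0.29, followed by Eya1 at 0.27 and Six2 at 0.22. Six5 stood at 0.11, Eya2 at 0.06, Eya3 at 0.05 and Six4 at -0.03. The median of the absolute values was 0.108 over the members and 0.113 over all genes tested. These values are relative to most genes. Scaled to the spike-in RNAs added to the samples, the median log2 ratio of all genes was -0.43 in place of -0.01. With that scaling all 7 members were negative, from -0.45 for Six4, already negative under TMM, to -0.13 for Eya4. The skeletal muscle marker sum was lower in replicate 1 than in replicate 2, mostly through Acta1, with 48.3 and 139 TPM. Mylpf and Myf5 went the other way. The part of muscle in these ratios was not tested.

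**Figure D2:**
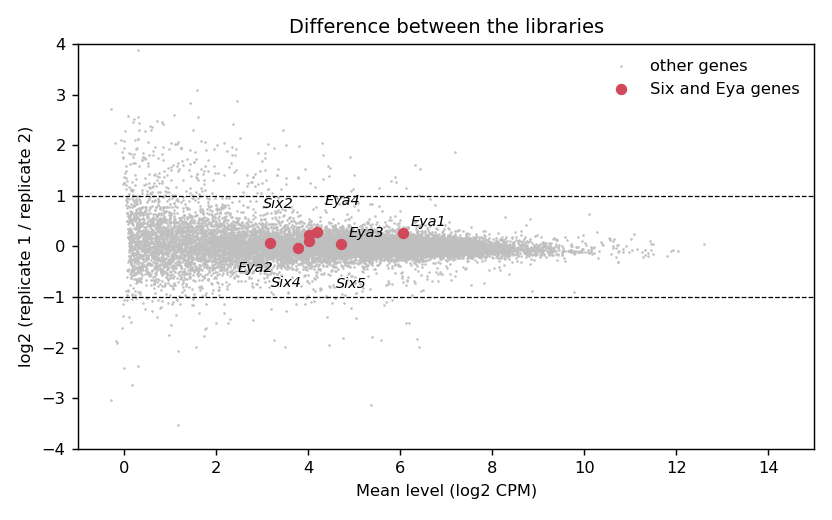
log2 ratio of replicate 1 over replicate 2 against mean log2 CPM for all genes tested (grey) and the 7 Six-family and Eya genes with reads (red). Dashed lines mark 2-fold, 14 genes lie outside the drawn range, and all 7 members lie between -0.03 and 0.29.

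The transcript tables divide each gene's reads among annotated transcripts, and shares are given as the percent of the gene's TPM. Transcripts called complete coding are annotated as protein-coding with both ends of the coding sequence, those called incomplete lack 1 end, and the names are those of GENCODE M21. Of the 39 transcripts 38 had the same length in the annotation of the files and in M21. The exception was Eya4-202, with 4091 bases in the files and 5304 in M21.

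The listed Six-family genes with reads used single transcripts or nearly so. Every Six2 count was assigned to Six2-202, which has 2 exons, and none to Six2-201, which has 3, and both carry the same 888 coding bases. Six5 has 1 annotated transcript. Six4-201, with 2325 coding bases, made up 87.7% of Six4 in replicate 1 and 89.9% in replicate 2, and Six4-202, with 1554, made up 12.3% and 10.1%.

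The Eya genes differed among themselves in how far their reads were divided. The leading transcript of all 6 members with several transcripts was the same in both libraries, as it was for 91.5% of the 10194 genes with at least 2 transcripts and 1 TPM in both libraries. Over all such genes the median share of the leading transcript was 69.8% in replicate 1 and 70.6% in replicate 2. Eya2-202 lay above that, with 94.1% and 94.7%, and Eya4-202 too, with 72.9% and 79.0%, while Eya1-201 had 32.3% and 30.0% and Eya3-212 had 41.5% and 46.8%. With posterior mean shares Eya2-202 had 73.3% and 74.9%. The part of a gene that would have to move to another transcript to make the libraries equal was 9.16% for Eya3, 8.94% for Eya1, 6.16% for Eya4, 4.38% for Eya2, 2.24% for Six4 and 0 for Six2, around a median of 6.37% for all such genes.

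**Figure D3:**
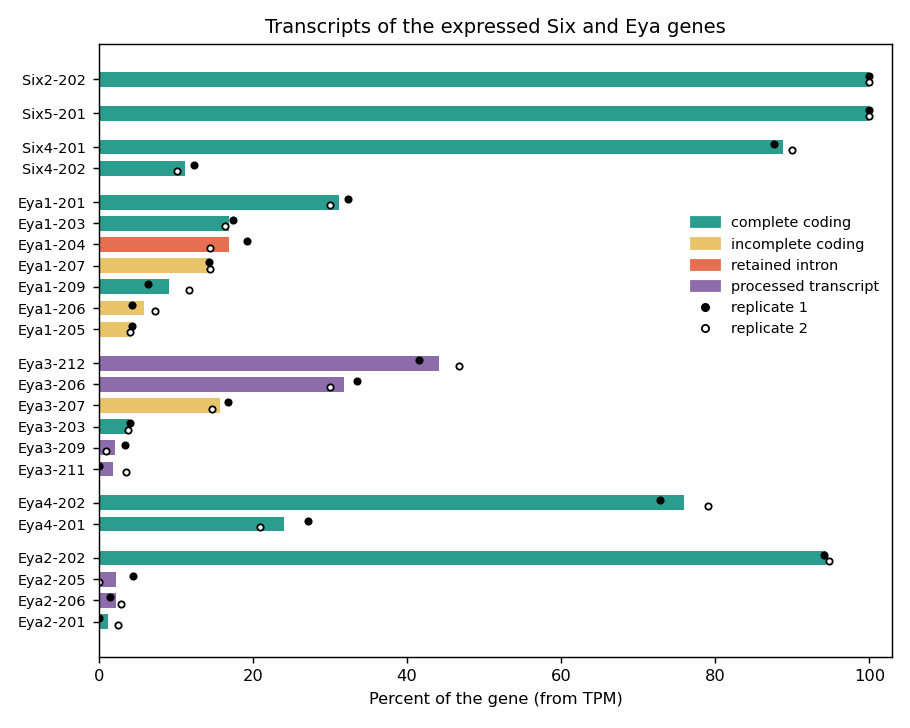
Share of each transcript in its gene, in percent of TPM, for transcripts with at least 2% in either library. Bars are means, filled points replicate 1, open points replicate 2, and colours give the annotated kind. Six2, Six4, Six5 and Eya4 are complete coding throughout, and Eya3 is led by processed transcripts.

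The 2 transcripts of Eya4 use alternative penultimate exons of 101 bases each, and these are shown because they are the coding difference between the transcripts. They lie 38 bases apart on the minus strand, at chr10:23109832-23109932 in Eya4-202 and at chr10:23109971-23110071 in Eya4-201 (GRCm38). Both are coding, both leave the coding sequence at 1848 bases, and both encode part of the Eya domain. The matching penultimate exons of Eya1 (chr1:14179480-14179580, minus strand), Eya2 (chr2:165769225-165769325, plus strand) and Eya3 (chr4:132719212-132719312, plus strand) also have 101 bases. All 5 are written 5′ to 3′ on the coding strand, with capitals at bases that differ from the exon of Eya4-202.
Eya4-202: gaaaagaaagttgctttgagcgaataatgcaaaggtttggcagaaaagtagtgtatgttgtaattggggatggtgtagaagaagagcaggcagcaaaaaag
Eya4-201: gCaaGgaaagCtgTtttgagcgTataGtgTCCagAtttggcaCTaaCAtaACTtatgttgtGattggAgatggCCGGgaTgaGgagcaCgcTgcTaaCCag
Eya1-201: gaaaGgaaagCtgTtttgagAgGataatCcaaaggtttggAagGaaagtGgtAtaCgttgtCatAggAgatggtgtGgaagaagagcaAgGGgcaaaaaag
Eya2-202: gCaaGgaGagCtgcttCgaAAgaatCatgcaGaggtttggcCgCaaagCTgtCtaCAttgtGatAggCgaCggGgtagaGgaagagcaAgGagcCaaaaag
Eya3-203: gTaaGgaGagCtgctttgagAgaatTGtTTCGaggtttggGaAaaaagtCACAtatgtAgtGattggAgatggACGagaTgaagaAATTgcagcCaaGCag

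The alternative Eya4 exons share 71 of 101 bases, or 70.3%. The exon of Eya4-202 is closer to those of Eya1 (82.2% identical bases) and Eya2 (75.2%), against 68.3% and 61.4% for the exon of Eya4-201. The exon of Eya4-201 is closer to that of Eya3, at 73.3%, against 69.3% for the exon of Eya4-202. More was assigned to the transcript whose exon is closer to that of Eya1: Eya4-202 had 5.75 TPM in replicate 1 and 5.05 TPM in replicate 2, and Eya4-201 had 2.14 and 1.34 TPM. Their bounds did not overlap in either library, at 4.95 to 6.23 against 1.55 to 2.77 TPM in replicate 1 and 4.39 to 5.47 against 0.906 to 1.80 TPM in replicate 2. The transcripts also differ in M21 in the first exon, with 142 bases in Eya4-202 and 126 in Eya4-201, and in the last, with 3326 and 1526. Reads outside the 101-base exons therefore enter the shares too, and the deposited length of Eya4-202 lacks bases that M21 adds.

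Eya1 has 9 annotated transcripts, of which Eya1-208 held 1.55 counts in replicate 1 and 0 in replicate 2. Complete coding transcripts made up 57.4% of Eya1 in replicate 1 and 59.8% in replicate 2, incomplete ones 23.4% and 25.8%, and the retained-intron transcript Eya1-204 19.3% and 14.4%. Eya1-204 had 6.81 TPM in replicate 1 and 4.47 TPM in replicate 2, and its bounds did not overlap between the libraries (6.09 to 7.22 against 3.94 to 4.82 TPM). The complete coding transcript Eya1-209 went the other way, with 6.36% of the gene in replicate 1 and 11.7% in replicate 2, or 2.25 and 3.65 TPM, and its bounds overlapped (1.04 to 3.53 against 2.43 to 4.87 TPM). Eya1-204 has 2 exons, the second of 3271 bases, and no annotated coding sequence, and the measurement was of total RNA.

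The leading coding transcripts of Eya1, Eya1-201 and Eya1-203, differ inside the coding sequence at the starts of exons 6 and 7. Eya1-201 has 15 more bases at the start of exon 7, and Eya1-203 has 3 more at the start of exon 6, which gives 1773 coding bases against 1761. The joined exon ends are printed to show these differences, 5′ to 3′ on the coding strand, with capitals at the bases that the other transcript lacks. The 3′ parts lie on the minus strand at chr1:14274190-14274207 and chr1:14270810-14270842 in Eya1-201, and at chr1:14274190-14274210 and chr1:14270810-14270827 in Eya1-203.
Eya1-201 exon 5 to 6: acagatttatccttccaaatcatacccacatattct
Eya1-203 exon 5 to 6: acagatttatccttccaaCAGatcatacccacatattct
Eya1-201 exon 6 to 7: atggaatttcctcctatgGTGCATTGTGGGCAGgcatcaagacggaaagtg
Eya1-203 exon 6 to 7: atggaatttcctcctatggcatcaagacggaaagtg

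Eya1-201, with the longer exon 7, had 11.4 TPM in replicate 1 and 9.33 TPM in replicate 2. Eya1-203 had 6.16 TPM in replicate 1 and 5.10 TPM in replicate 2. Eya1-201, of 4347 bases, and Eya1-203, of 4366, also differ outside the coding sequence, so reads there enter these levels too. The bounds of these transcripts did not overlap, at 8.95 to 12.7 against 4.58 to 7.84 TPM in replicate 1 and 7.03 to 10.6 against 3.55 to 6.75 TPM in replicate 2. Of the gene's counts Eya1-201 took 44.0% in replicate 1 and 43.3% in replicate 2, more than its share of TPM, since the short incomplete transcripts count for more per read in TPM.

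Eya3 differed from the other members in the kind of its transcripts. Complete coding transcripts made up 4.78% of Eya3 in replicate 1 and 4.07% in replicate 2, or 1.24 and 0.99 TPM. Over the 9743 genes compared the median share was 87.1% in replicate 1 and 88.6% in replicate 2, and 13.7% of them had less than 50% in both libraries. Eya3 was the only member below 50% in both. By counts the share of complete coding transcripts in Eya3 was 15.6% and 12.9%.

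Most of Eya3 was assigned to transcripts with no annotated coding sequence. Eya3-212 had 10.8 TPM in replicate 1 and 11.4 TPM in replicate 2, from 549 and 631 counts. Eya3-206 had 8.69 and 7.32 TPM, from 111 and 101 counts. The incomplete coding transcript Eya3-207 had 4.35 and 3.58 TPM, and Eya3-203, the leading complete coding transcript, 1.05 and 0.91 TPM. In each library the lower bound of Eya3-212, 8.97 TPM in replicate 1 and 9.62 TPM in replicate 2, was above the upper bound of Eya3-203, 1.08 and 0.908 TPM. The level of Eya3-203 was hardly apart from 0, with lower bounds of 0.0668 TPM in replicate 1 and 0.00045 TPM in replicate 2. Its posterior mean shares were 2.19% and 1.94%, against 4.05% and 3.73% of TPM.

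The Eya3 transcripts differ in few parts of the gene. Eya3-212 lacks 177 coding bases of Eya3-203, of which 137 form a skipped exon (chr4:132672896-132673032, plus strand) and 40 are the end of the exon before it (chr4:132670189-132670255). Its last exon has 857 bases against 3487 in Eya3-203. Reads in the many exons that Eya3-212 and Eya3-203 share cannot be assigned from sequence alone, so the division between them rests on these differences. Eya3-206 stops early and lacks an exon of 80 coding bases (chr4:132667155-132667234, plus strand).

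**Figure D4:**
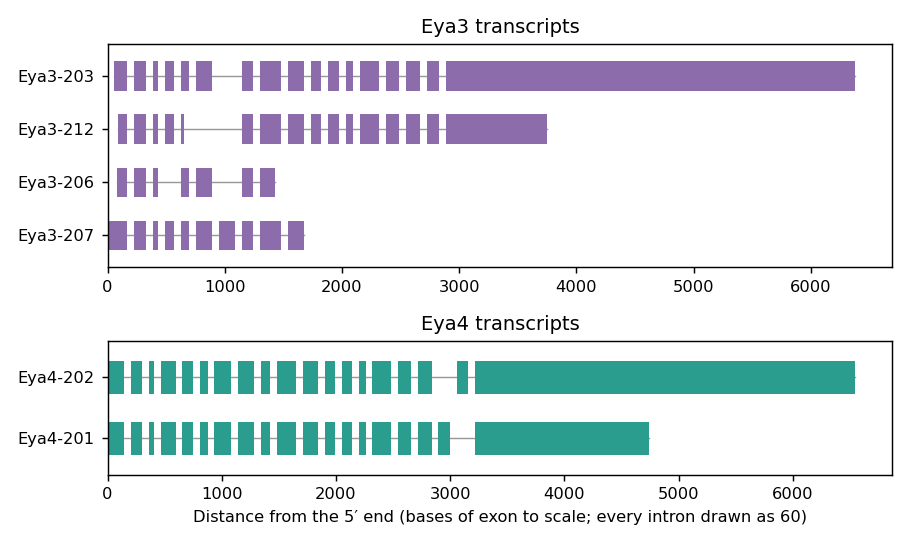
Exons of Eya3 and Eya4 transcripts from the 5′ end, with exon lengths to scale in bases and every intron drawn as 60. Eya3-212 lacks an exon and most of the last exon of Eya3-203, which has 3487 bases, and the Eya4 transcripts differ in the exon before the last.

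Eya3-207 carries a cassette exon of 138 bases, the same length as exon 7 of Eya1-201. Both are printed because they open with nearly the same bases. The first 15 are in capitals, and in Eya1 these are the bases that Eya1-203 lacks. Eya1 exon 7 lies at chr1:14270705-14270842 on the minus strand and the Eya3 cassette exon at chr4:132680756-132680893 on the plus strand.
Eya1-201 exon 7: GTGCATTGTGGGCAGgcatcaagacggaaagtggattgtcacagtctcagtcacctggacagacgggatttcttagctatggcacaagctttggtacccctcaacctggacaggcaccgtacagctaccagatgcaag
Eya3-207 cassette exon: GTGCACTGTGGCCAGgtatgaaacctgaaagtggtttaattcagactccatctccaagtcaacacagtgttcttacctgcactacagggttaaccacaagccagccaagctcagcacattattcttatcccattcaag

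These exons share 79 of 138 bases, or 57.2%, and 13 of the first 15. The exon with the 15 bases was in the leading complete coding transcript of Eya1. In Eya3 the transcript with the cassette exon made up 16.8% of the gene in replicate 1 and 14.7% in replicate 2.

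Genes of the wider network were read from a list of 25 names, of which 24 matched, and 23 of these were detected in both libraries. All 8 nephron progenitor markers named above as a group are among them, so these counts are not separate from the marker counts. The same rule was met by 62.2% of all 21474 protein-coding genes. The median level of the 9 members was 7.15 TPM, against 23.5 TPM for the network genes. The listed name without a match was Tle5, whose gene stands in the files under its older symbol Aes.

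Among the Pax proteins, which act upstream of and beside these regulators, Pax8 had 131 TPM in replicate 1 and 112 TPM in replicate 2, and Pax2 had 27.3 and 20.0 TPM. The Dach corepressors stood near Six2 and Six5 in level, Dach1 with 16.7 and 14.3 TPM and Dach2 with 9.05 and 8.33 TPM. Among the Groucho-type cofactors Tle2 stood at 42.6 and 34.6 TPM, Tle3 at 25.1 and 21.8, Tle1 at 20.9 in both and Tle4 at 9.57 and 10.4. Aes, a shortened member of that family, differed most between the libraries, with 202 TPM in replicate 1 and 332 TPM in replicate 2. Sobp, a cofactor of Six-family proteins, was the gene not detected in both, with 1.21 and 0.95 TPM.

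All 10 listed progenitor regulators were detected. Cited1, a marker of the uncommitted progenitor, had 134 TPM in replicate 1 and 119 TPM in replicate 2, Wt1, a zinc finger regulator of the mesenchyme and podocytes, 116 and 104, and the homeobox gene Uncx 59.3 and 49.9. Sall1 had 36.4 and 32.6 TPM, Osr1 23.2 and 16.9, Meox1 12.7 and 12.8 and Meox2 10.2 and 7.17. Of the Hox11 paralogs, which act with Eya1 and Pax2 on Six2 and Gdnf, Hoxa11 had 26.1 and 23.5 TPM and Hoxd11 14.7 and 11.7, while Hoxc11 was close to the threshold with 1.27 and 1.04.

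The 4 listed targets or partners were detected too. Gdnf, the ligand that draws out the ureteric bud, had 7.40 TPM in replicate 1 and 5.88 TPM in replicate 2. The integrin gene Itga8 had 35.3 and 37.8 TPM, Crym, a progenitor marker, 63.1 and 59.9, and Myc 109 and 98.0. Several of these genes are expressed in kidney cells other than progenitors, and whole-kidney levels do not separate them.

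**Figure D5:**
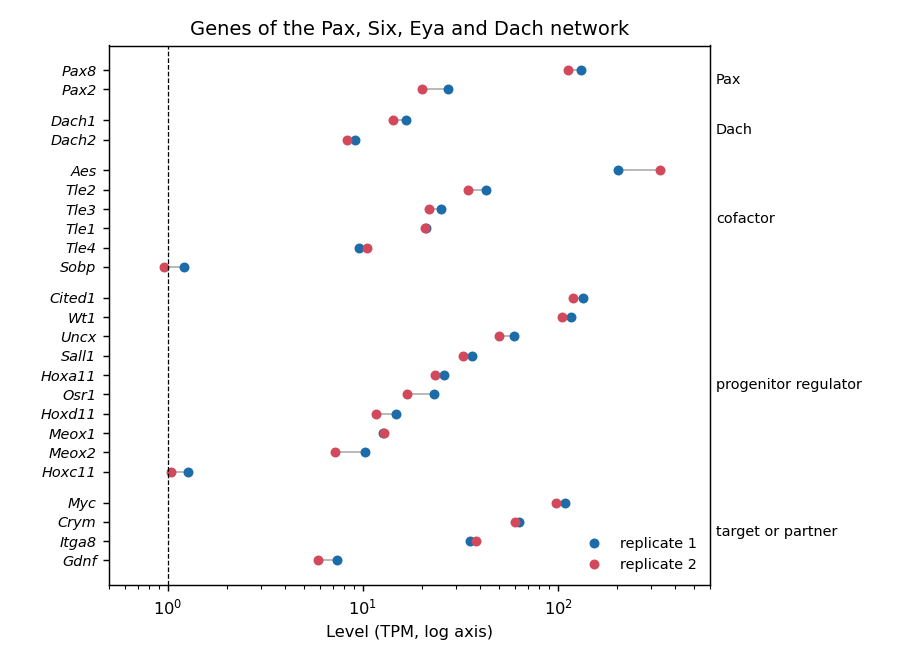
Level in TPM (log axis) of the 24 matched network genes in replicate 1 (blue) and replicate 2 (red), ordered by role. The dashed line marks 1 TPM, and Sobp is the gene that falls below it in replicate 2.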

How the data were processed

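Total RNA from pooled kidneys was measured in 2 libraries. Extraction kept RNA longer than 200 nt and spike-in RNAs were added, per the labels, and the deposited values refer to mm10 and GENCODE M4. Aligner, quantifier and strand setting were not given in the sources used here. The authors deposited gene and transcript tables with expected counts, TPM, FPKM (not used for levels), posterior mean TPM, lower and upper TPM bounds (a signal that is never negative) and the percent of each transcript within its gene. Spike-in shares were 2.82% (replicate 1) and 2.08% (replicate 2) of counts, and 26248 entries named by a bare number were left out. Names, coordinates and transcript sequences came from GENCODE M21 (GRCm38) by stable identifier, with 42462 of 43346 mouse genes matched.

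Rounded expected counts were scaled by TMM with edgeR 4.0.16 (R 4.3.3), with a prior count of 2, for genes whose mean reached 1 CPM. Paralog ratios used log2(TPM + 0.1) for the log2 values and plain TPM for folds. Detection meant 1 TPM or more in both libraries. The calculation of ratios between the libraries was tested on simulated data, and the other calculations were not. Alternatives were DESeq2 1.42.0 size factors, spike-in totals, other pseudocounts, posterior means and each library alone. The members, lists and tests were chosen with earlier results of these data known. Named genes were all members, all network genes, genes within 5000 bp of a member and leading markers. The share of complete coding transcripts and the longest-transcript length were added after seeing the data. The labels give separate biological replicates, with spread over pools.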

Additional observations from a re-analysis of the deposited data

How the results depend on the processing

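Of 181 recomputed values, 156 were held to be unchanged, 18 moved by more than the spread between the libraries and 7 changed sign. Values from 1 library alone are among the 181 and could not move past that spread, since each of 2 values lies within it of their mean. The 156 also include counts of genes, for which no such spread exists. The log2 ratio of Eya4 over Eya2 was -0.0037 with posterior mean TPM. Scaled to spike-in totals, the log2 ratio of replicate 1 over replicate 2 was -0.20 for Six2, -0.31 for Six5, -0.15 for Eya1, -0.36 for Eya2, -0.37 for Eya3 and -0.13 for Eya4. The log2 ratio of Six5 over Six4 was 1.12 with a pseudocount of 1 TPM, against 1.32 with 0.1. With the length of the longest complete coding transcript, an alternative chosen after seeing the data, the log2 ratio of Eya1 over Eya3 was 1.59, against 0.40, and that of Eya3 over Eya4 was 0.17, against 1.81. With posterior mean TPM Eya2 stood at 6.99 TPM and made up 9.57% of the Eya sum, Eya1 made up 45.6% of it, Six4 stood at 3.19 TPM, and Six3 and Six6 were at 0.045 and 0.010 TPM. By expected counts the leading transcript took 43.6% of Eya1, 62.5% of Eya3 and 97.4% of Eya2. The number of members detected, past 2-fold between the libraries and below 50% complete coding stayed within 1.5 times the given count under every alternative run for it; for the first and the last of these that includes each library alone. No paired analysis was possible because the samples form 1 group. With 2 libraries an exact sign-flip test cannot pass a threshold of 0.05.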

Other observations

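Genes annotated within 5000 bp of a member or overlapping it were read for shared signal, since the strand setting was not given in the sources used here. Six3os1, on the opposite strand of Six3, had 2 counts in replicate 1 and 0 in replicate 2, so neither gene of this overlap held more than 2 counts. 4930447C04Rik, which overlaps the silent Six6 on the opposite strand, had 31 and 29 counts (0.72 and 0.82 TPM).

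Dmpk, the myotonic dystrophy kinase gene, ends 772 bp before Six5 on the same strand. It had 14.04 TPM in replicate 1 and 23.14 TPM in replicate 2, where Six5 had 8.60 and 7.97 TPM. Dmpk is expressed in muscle, and the muscle marker sum was also lower in replicate 1, at 96.8 TPM, than in replicate 2, at 196 TPM. Most of the difference in that sum lay in Acta1, with 48.3 and 139 TPM. Mylpf (22.4 and 21.2 TPM) and Myf5 (0.15 and 0.1 TPM) went the other way. The part of muscle in the Dmpk difference was not tested. Gm4969, on the opposite strand 496 bp from Six5, had 87 counts in replicate 1 and 81 in replicate 2 (3.19 and 2.49 TPM). Xkr8, on the opposite strand, ends 131 bp from the 3′ end of Eya3 and had 3.79 TPM in replicate 1 and 6.03 TPM in replicate 2. Within Eya1, Gm37444 had 4 counts in replicate 1 and 0 in replicate 2, and within Eya2 the pseudogene Gm11460 had 1 in each, and the remaining annotated neighbours were at 0.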
